A study of Mus musculus with 16 samples.

Results

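Antibody genes were followed in leukocytes of mouse bone marrow and spleen after chemogenetic activation of brainstem neurons. The genes described are the 7 heavy-chain constant genes Ighm, Ighd, Igha, Ighg1, Ighg2b, Ighg2c and Ighg3, the light-chain constant genes Igkc and Iglc2, and Jchain. They were chosen by symbol, with earlier results of these data known, and are 10 of the 49585 genes in each library. All of them passed the filter on low values in every comparison, with between 66 and 85954 reads per library.

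The data are 16 RNA-seq libraries of poly(A) RNA from CD45+ cells, which form 4 groups of 4 replicates: bone marrow hM3Dq, bone marrow mCherry, spleen hM3Dq and spleen mCherry. The mice were C57BL/6J Dbh-Cre animals labelled 12 week, and all of them received CNO (clozapine N-oxide) 4 h before cells were taken. The hM3Dq mice carried AAV-DIO-hM3Dq-mCherry in the VLM (ventrolateral medulla), which puts an excitatory designer receptor for CNO on neurons that express Cre from the Dbh driver, a marker of noradrenergic and adrenergic cells. The mCherry mice carried AAV-DIO-mCherry and received CNO too, so a group without CNO was not analysed here. The hM3Dq libraries are replicates 5 to 8 and the mCherry libraries replicates 1 to 4 in both tissues. The series calls them biological replicates, and its labels do not say whether a bone marrow and a spleen library with the same number came from the same mouse.

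An antibody joins a variable region, which binds antigen, to a constant region, which sets its class. Mature B cells carry IgM and IgD on their surface, and after class switching a cell deletes the DNA between its variable region and a new constant gene. Plasma cells, many of which live in bone marrow, transcribe one heavy and one light chain gene at very high levels, and Jchain encodes the peptide that links IgA into dimers and IgM into pentamers.

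In GENCODE M21 (GRCm38) the heavy-chain genes lie on the minus strand in the order in which switching passes them: Ighm at chr12:113418558-113422730, Ighd at chr12:113406604-113416324, Ighg3 at chr12:113356224-113361232, Ighg1 at chr12:113325240-113330523, Ighg2b at chr12:113302965-113307933, Ighg2c at chr12:113285325-113288932 and Igha at chr12:113254830-113260236. Igkc lies at chr6:70726435-70726966 on the plus strand, Iglc2 at chr16:19198396-19200351 on the minus strand and Jchain at chr5:88519809-88527891 on the minus strand. Igha and Ighm are shown first, because J chain binds their secreted forms. Both secreted coding sequences end in a tailpiece, and the capitals mark the codon of the penultimate cysteine, to which J chain is joined. The 60 bases before the stop codon are at chr12:113258771-113258830 for Igha and at chr12:113420870-113420929 for Ighm, both on the minus strand.
Igha: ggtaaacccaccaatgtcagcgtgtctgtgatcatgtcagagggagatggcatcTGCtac
Ighm: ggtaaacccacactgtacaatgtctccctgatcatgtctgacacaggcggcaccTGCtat
The FPKM are values of whole genes and do not separate these secreted forms from the membrane forms of the same genes.

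The IgG genes are close copies, and C57BL/6 mice carry Ighg2c in place of the Ighg2a of other strains. The first 90 coding bases of each are shown as a sample of how the genes differ, with capitals at the bases that differ from Ighg2c. The stretches are at chr12:113288843-113288932, chr12:113307844-113307933, chr12:113330434-113330523 and chr12:113361143-113361232, all on the minus strand.
Ighg2c: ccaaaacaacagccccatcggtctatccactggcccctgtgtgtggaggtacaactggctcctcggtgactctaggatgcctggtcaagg
Ighg2b: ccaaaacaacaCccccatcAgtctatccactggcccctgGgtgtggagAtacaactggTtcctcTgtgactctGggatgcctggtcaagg
Ighg1: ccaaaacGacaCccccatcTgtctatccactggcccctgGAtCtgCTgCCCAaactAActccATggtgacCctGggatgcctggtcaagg
Ighg3: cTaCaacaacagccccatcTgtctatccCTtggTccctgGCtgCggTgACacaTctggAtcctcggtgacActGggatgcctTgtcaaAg
Ighg2b differed from Ighg2c at 7 of these 90 bases, and Ighg1 and Ighg3 each at 18. Over their whole aligned coding sequences Ighg2b and Ighg2c were 87.8% identical, and the longest identical run held 78 bases, so a read inside such a run could belong to either gene and the split between them is uncertain. The other pairs of IgG genes were 77.9% to 79.2% identical, but they too hold long identical runs: 88 bases between Ighg2b and Ighg3, 59 between Ighg1 and Ighg2b and between Ighg1 and Ighg3, 41 between Ighg2c and Ighg3 and 37 between Ighg1 and Ighg2c. Reads inside these runs are uncertain in the same way.

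Lambda light chains have 3 functional constant genes, and the same holds for a pair of them. The stretches shown start at chr16:19198761-19198850 for Iglc2, chr16:19065590-19065679 for Iglc3 and chr16:19061980-19062069 for Iglc1, all on the minus strand, with capitals at the bases that differ from Iglc2.
Iglc2: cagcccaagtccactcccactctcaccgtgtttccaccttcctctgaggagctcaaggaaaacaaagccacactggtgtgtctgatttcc
Iglc3: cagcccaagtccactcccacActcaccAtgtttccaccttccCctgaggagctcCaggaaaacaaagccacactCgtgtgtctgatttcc
Iglc1: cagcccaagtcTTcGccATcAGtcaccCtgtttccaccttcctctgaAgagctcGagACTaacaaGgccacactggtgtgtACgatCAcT
Iglc3 differed from Iglc2 at 5 of the 90 bases and was 96.5% identical to it over the coding sequence, so reads of Iglc2 and Iglc3 are split with uncertainty. Iglc1 differed at 19 of the 90 bases and was 74.8% identical to Iglc2, with no identical run longer than 19 bases, and its value is therefore separable from theirs.

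The libraries held 11.3 to 17.0 × 10⁶ assigned fragments. CD45 itself, Ptprc, was present in all of them, at 27.8 to 44.8 FPKM in bone marrow hM3Dq, 33.5 to 37.2 in bone marrow mCherry, 66.2 to 81.5 in spleen hM3Dq and 86.9 to 93.5 in spleen mCherry libraries. By the test described below, Ptprc was lower in spleen of hM3Dq mice, with a log2 change of -0.34. Its bone marrow change of -0.15 did not pass. Haemoglobin genes held 0.391% to 2.38% of fragments in bone marrow hM3Dq, 1.34% to 2.84% in bone marrow mCherry, 0.133% to 1.33% in spleen hM3Dq and 0.569% to 1.69% in spleen mCherry libraries. In the spleen, mCherry replicates 1 and 2 stood apart from mCherry replicates 3 and 4 in IgG genes, and hM3Dq replicate 8 was below the other hM3Dq libraries in Ighm, Igkc, Jchain and the IgG genes. The immunoglobulin constant genes and Jchain held 0.842% ± 0.125 of fragments in bone marrow hM3Dq and 0.568% ± 0.0748 in bone marrow mCherry libraries, and 1.45% ± 0.284 in spleen hM3Dq and 1.15% ± 0.277 in spleen mCherry libraries (SD, n = 4 each).

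**Figure D1:**
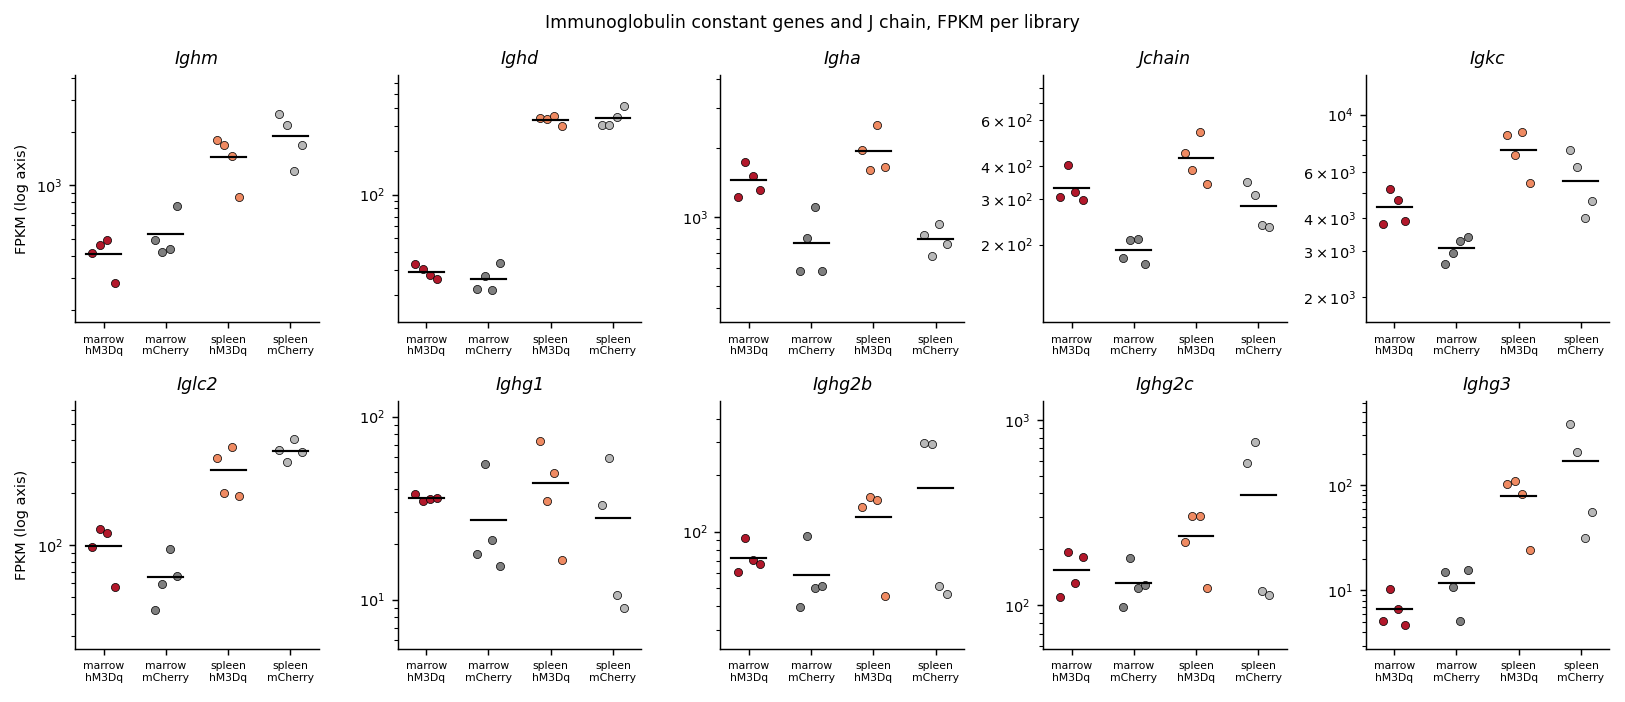
FPKM (log axis) of the 10 genes in each library, in the order marrow hM3Dq, marrow mCherry, spleen hM3Dq and spleen mCherry; points are libraries and bars are means of 4. Igha in spleen lay between 1608 and 2522 in hM3Dq libraries, above the 676 to 932 of mCherry libraries, while the points of the IgG genes spread widely within each spleen group.

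Of the 10 genes, Igha in spleen and Jchain in bone marrow passed the test between hM3Dq and mCherry mice. Igha, the constant gene of the class that guards mucosal surfaces, rose 2.34-fold in spleen of hM3Dq mice. Jchain rose 1.64-fold in bone marrow of hM3Dq mice. The changes below are log2 ratios of FPKM after composition scaling with a pseudocount of 0.1 (limma), positive where hM3Dq is higher, with Benjamini-Hochberg adjustment over all genes tested and a threshold of 0.05. In bone marrow 762 of 16095 genes passed, 4.73%, with 3.04% higher and 1.70% lower; of the 10 genes 1 was higher and none was lower. In spleen 1377 of 17076 genes passed, 8.06%, with 3.49% higher and 4.57% lower; again 1 of the 10 was higher and none was lower. A count of 1 in 10 is near that background, so the counts do not set the 10 genes apart. Their median log2 change was 0.36 in bone marrow and -0.12 in spleen, beside -0.01 and -0.02 over all genes tested.

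Igha had 1968, 1608, 2522 and 1661 FPKM in spleen hM3Dq libraries, against 838, 676, 932 and 762 FPKM in spleen mCherry libraries. The groups did not overlap: the lowest hM3Dq library stood well above the highest mCherry library. Among all genes tested in spleen, 18.3% had groups that did not overlap and 9.35% had every hM3Dq library above every mCherry library, and Igha was the only one of the 10 that did. The log2 change was 1.23 ± 0.18 (SE), with a limma adjusted p of 0.00993, and the adjusted p stayed between 0.0035 and 0.0333 over the alternatives, leaving out each library included. In bone marrow, Igha had 1221, 1745, 1512 and 1314 FPKM in hM3Dq libraries, against 579, 809, 1111 and 582 FPKM in mCherry libraries. These groups did not overlap either, although mCherry replicate 3 came close. The change of 0.87 ± 0.22 missed the threshold narrowly, at a limma adjusted p of 0.0534, and the alternatives gave values from 0.0195 to 0.141. Without mCherry replicate 3 the change was 1.07, with a limma adjusted p of 0.0204.

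Jchain had 305, 403, 318 and 296 FPKM in bone marrow hM3Dq libraries, against 177, 208, 209.6 and 168 FPKM in bone marrow mCherry libraries. Every hM3Dq library was higher than every mCherry library. The log2 change was 0.71 ± 0.12, with a limma adjusted p of 0.0149, and all alternatives gave 0.00935 to 0.0458. In spleen the values were 448, 388, 539 and 343 FPKM in hM3Dq libraries, against 349, 310.3, 237 and 233 FPKM in mCherry libraries, so that hM3Dq replicate 8 overlapped mCherry replicate 1. The spleen change of 0.57 ± 0.19 did not pass, at a limma adjusted p of 0.0936, and a fit of all 16 libraries together gave 0.0435. The difference between the responses of the tissues passed for neither gene: bone marrow minus spleen was -0.35 ± 0.31 for Igha and 0.14 ± 0.23 for Jchain, with limma adjusted p of 0.812 and 0.924.

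Plasma cell genes were measured beside these values, since RNA of fewer cells of a type and less RNA per cell cannot be told apart in bulk samples. The summed FPKM of 6 plasma cell markers (Sdc1, Prdm1, Xbp1, Tnfrsf17, Mzb1, Derl3), none of them at 0, ranged from 65.9 to 76.5 in bone marrow hM3Dq and from 58.6 to 68.3 in bone marrow mCherry libraries. In spleen the sum ranged from 105 to 147 in hM3Dq and from 101 to 165 in mCherry libraries. The sums overlapped in both tissues, and their part in the Igha and Jchain values was not tested.

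IgM and IgD are the classes that B cells carry before switching, and neither passed the test between hM3Dq and mCherry mice. Ighm had 414, 462, 493 and 283 FPKM in bone marrow hM3Dq libraries, against 491, 420.1, 437 and 769 FPKM in bone marrow mCherry libraries. It had 1795, 1682, 1465 and 859 FPKM in spleen hM3Dq libraries, against 2514, 2186, 1207 and 1682 FPKM in spleen mCherry libraries. Groups overlapped in both tissues. The log2 change was -0.42 ± 0.23 in bone marrow and -0.42 ± 0.29 in spleen, with limma adjusted p of 0.291 and 0.392. Ighd, which is made by alternative processing of a transcript shared with Ighm, averaged 29.1 ± 3.02 FPKM in bone marrow hM3Dq and 25.9 ± 5.5 FPKM in bone marrow mCherry libraries, and 331 ± 22.3 FPKM in spleen hM3Dq and 342 ± 50.6 FPKM in spleen mCherry libraries (SD, n = 4 each). Its changes were 0.10 ± 0.13 and -0.07 ± 0.11, the smallest SE of any of the 10 genes within the spleen.

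The heavy-chain makeup of the libraries followed from these values. IgA made up 67.0% ± 1.69 of the summed FPKM of the 7 heavy-chain genes in bone marrow hM3Dq and 49.0% ± 10.9 in bone marrow mCherry libraries. In spleen it made up 46.7% ± 7.75 in hM3Dq and 22.8% ± 8.86 in mCherry libraries (SD, n = 4 each). The lowest share in each hM3Dq group, 64.9% in bone marrow and 38.1% in spleen, was above the highest in its mCherry group, 62.8% and 34.5%. The ratio of Igha to Ighm FPKM averaged 3.61 ± 0.782 in bone marrow hM3Dq and 1.60 ± 0.793 in bone marrow mCherry libraries, and 1.43 ± 0.474 in spleen hM3Dq and 0.467 ± 0.213 in spleen mCherry libraries. IgM fell short of IgA in all 8 bone marrow libraries except mCherry replicate 4, and exceeded it in all 4 spleen mCherry libraries. No test was made of these shares, since each combines several of the genes.

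**Figure D2:**
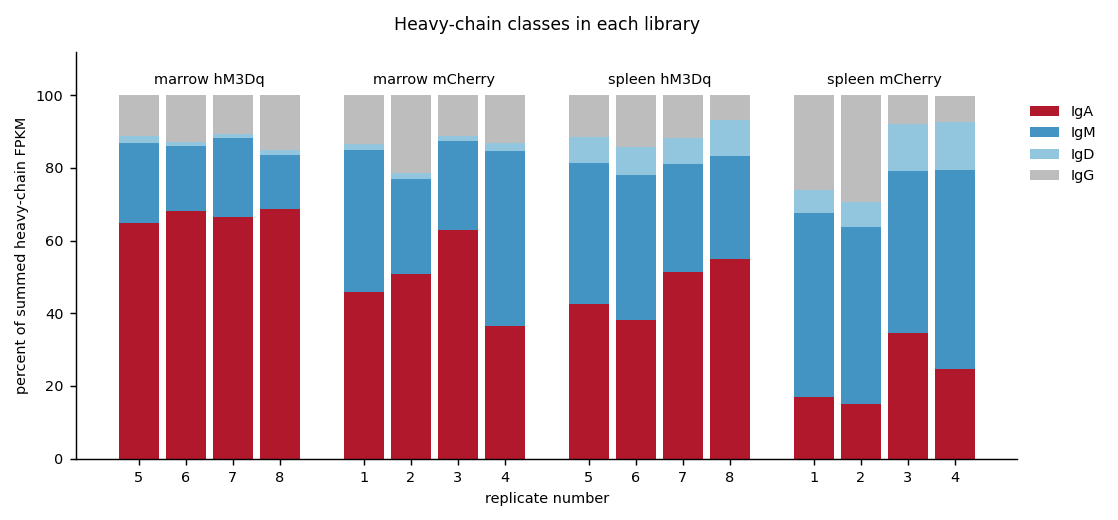
Percent of summed heavy-chain FPKM (vertical axis) in IgA, IgM, IgD and IgG (the 4 Ighg genes together) for each library, by replicate number, with hM3Dq to the left of mCherry in each tissue. The IgA part is larger in every hM3Dq library than in any mCherry library of the same tissue, and IgG is largest in spleen mCherry replicates 1 and 2.

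The IgG genes varied widely within each spleen group. There Ighg2b, the constant gene of IgG2b, had 136, 152, 147 and 45.2 FPKM in hM3Dq libraries, against 298, 291, 51.1 and 46.4 FPKM in mCherry libraries. Ighg2c had 219, 304, 302 and 123 FPKM in spleen hM3Dq libraries, against 586, 759, 119 and 113 FPKM in spleen mCherry libraries. Ighg3, the constant gene of a class made mainly against carbohydrate antigens, had 103, 109.7, 81.8 and 24.1 FPKM in spleen hM3Dq libraries, against 380.1, 208, 31.6 and 56.0 FPKM in spleen mCherry libraries. The mCherry libraries fell into a high pair, replicates 1 and 2, and a low pair, replicates 3 and 4, and the hM3Dq libraries lay between or beside them. The spleen changes were -0.18 ± 0.71 for Ighg2b, -0.35 ± 0.66 for Ighg2c and -0.70 ± 0.80 for Ighg3, with limma adjusted p of 0.897, 0.771 and 0.619. Leaving out a library turned the direction for Ighg2b and Ighg2c: without mCherry replicate 2 they were 0.26 and 0.14, without mCherry replicate 1 they were 0.25 and 0.0034, and without hM3Dq replicate 8 Ighg2b was 0.23. With errors this wide, a change of the size seen for Igha would not have been detectable in these genes.

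In bone marrow the highest library was 1.08 to 3.59 times the lowest of its group in the IgG genes, against 2.48 to 12.0 times in spleen. Ighg1 had 37.5, 34.7, 35.6 and 36.1 FPKM in hM3Dq libraries, against 17.7, 54.7, 21.1 and 15.3 FPKM in mCherry libraries. The hM3Dq libraries were nearly equal and lay above 3 of the 4 mCherry libraries, while mCherry replicate 2 was higher than any of them. The change was 0.53 ± 0.32 with a limma adjusted p of 0.356, and without mCherry replicate 2 it was 0.91 with 0.019. Ighg2b averaged 72.8 ± 13.5 FPKM in hM3Dq and 59.1 ± 24.6 FPKM in mCherry libraries, Ighg2c 154 ± 40.2 and 132 ± 34.3 FPKM, and Ighg3 6.71 ± 2.53 and 11.7 ± 4.81 FPKM (SD, n = 4 each, hM3Dq before mCherry). None of these passed, and the bone marrow change of Ighg3 was -0.81 ± 0.36 with a limma adjusted p of 0.205. In the spleen Ighg1 had 73.1, 34.4, 49.0 and 16.4 FPKM in hM3Dq libraries, against 32.7, 59.3, 10.6 and 9.0 FPKM in mCherry libraries, a change of 0.83 ± 0.67 with a limma adjusted p of 0.468. Ighe, the constant gene of IgE, was low: between virus groups it passed the filter on low values in spleen and not in bone marrow. In spleen it had at most 2.52 FPKM, and its change of 1.02 ± 0.31 did not pass at a limma adjusted p of 0.077, although its groups did not overlap.

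Light chains pair with the heavy chains, and kappa predominates in mice. Igkc, the kappa constant gene, had 3793, 5184, 4723 and 3909 FPKM in bone marrow hM3Dq libraries, against 2664, 2951, 3282 and 3398 FPKM in bone marrow mCherry libraries. Every hM3Dq library was higher, as it was for Igha and Jchain; these 3 genes were the only ones of the 10 with that pattern in bone marrow, where 12.2% of all genes tested had it and 16% had groups that did not overlap in either direction. The change was 0.43 ± 0.16 and did not pass, with a limma adjusted p of 0.14. In spleen Igkc had 8324, 7002, 8542 and 5447 FPKM in hM3Dq libraries, against 7342, 6297, 3995 and 4646 FPKM in mCherry libraries, a change of 0.38 ± 0.27 with overlapping groups and a limma adjusted p of 0.414.

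The lambda constant gene Iglc2 had 97.5, 123, 118 and 57.0 FPKM in bone marrow hM3Dq libraries, against 42.2, 59.7, 95.3 and 65.9 FPKM in bone marrow mCherry libraries. In spleen it had 319, 199, 368 and 191 FPKM in hM3Dq libraries, against 351, 299, 406 and 342 FPKM in mCherry libraries. The changes were 0.51 ± 0.28 and -0.46 ± 0.23, in opposite directions and with overlapping groups in both tissues, and neither passed (limma adjusted p of 0.305 and 0.246). Bone marrow minus spleen was 0.97 ± 0.40 for Iglc2, the largest such difference of the 10 genes, and did not pass either, at a limma adjusted p of 0.474. None of the 10 passed the test of a difference between the tissues, and 1 of them, Iglc2, had an unadjusted p below 0.05; over all genes 18 of 17987 passed, 0.10%, and 1602 had an unadjusted p below 0.05. Iglc2 spans the joining segment Iglj2, so reads of Iglj2 overlap with it.

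Iglc1, the constant gene of lambda 1 and not among the 10, fell in both tissues. It had 36.2, 47.2, 42.6 and 19.1 FPKM in bone marrow hM3Dq libraries, against 94.1, 273, 82.3 and 83.4 FPKM in bone marrow mCherry libraries. In spleen it had 80.1, 67.6, 83.1 and 44.4 FPKM in hM3Dq libraries, against 426, 448, 167 and 239 FPKM in mCherry libraries. Every hM3Dq library was below every mCherry library in each tissue, a pattern that 3.81% of all genes tested had in bone marrow and 8.92% in spleen. The log2 change was -2.17 ± 0.34 in spleen, 4.52-fold lower with a limma adjusted p of 0.0104, and it passed in all alternatives, with adjusted p up to 0.0358. In bone marrow it was -1.82 ± 0.40 with a limma adjusted p of 0.0339; the call was lost in 8 of 16 alternatives, with adjusted p up to 0.0936, among them the fits that left out any hM3Dq library or mCherry replicate 1 or 4. Without mCherry replicate 2, the library with 273 FPKM, the change was smallest, at -1.42. As a share of the 3 lambda constant genes, Iglc1 was 19.5% ± 2.16 in bone marrow hM3Dq and 50.3% ± 16.5 in bone marrow mCherry libraries, and 14.3% ± 2.54 in spleen hM3Dq and 32.9% ± 11.6 in spleen mCherry libraries. Iglc3 fell in spleen, with a change of -0.96 ± 0.24 and a limma adjusted p of 0.0446 that was lost in 9 of 16 alternatives, up to 0.114, among them the fits without hM3Dq replicate 6 or 8 or any mCherry library. In bone marrow the change of Iglc3 was -0.17 ± 0.22 and did not pass.

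The segments that join Iglc1 moved with it. In mice the variable segment Iglv1 is joined to Iglj1 and Iglc1 or to Iglj3 and Iglc3, while Iglv2 and Iglv3 are joined mainly to Iglj2 and Iglc2. Iglj1 fell by 1.99 ± 0.37 in bone marrow and by 2.42 ± 0.35 in spleen on the log2 scale, with limma adjusted p of 0.0191 and 0.00856; the bone marrow call was lost with no filter on low values, at 0.0589. Iglv1 had 55.8, 72.0, 63.4 and 38.5 FPKM in bone marrow hM3Dq libraries, against 132, 361, 90.9 and 112 FPKM in bone marrow mCherry libraries. It had 111, 94.5, 140.2 and 58.1 FPKM in spleen hM3Dq libraries, against 538, 582, 219.5 and 297 FPKM in spleen mCherry libraries. The groups did not overlap in either tissue; the spleen change of -2.01 ± 0.36 passed (limma adjusted p of 0.017, and 0.0531 without mCherry replicate 1) and the bone marrow change of -1.48 ± 0.38 did not (0.0558, and 0.0466 without mCherry replicate 3). Iglv3 went the other way in bone marrow, with 63.3, 76.7, 63.4 and 31.8 FPKM in hM3Dq libraries, against 19.8, 16.1, 20.5 and 19.0 FPKM in mCherry libraries. That change was 1.50 ± 0.24 with a limma adjusted p of 0.0136, and it passed in all alternatives; in spleen Iglv3 changed by -0.02 ± 0.30, and the difference between the tissues did not pass (limma adjusted p of 0.195). Iglv2 fell by 1.30 and Iglj3 by 1.34 on the log2 scale in spleen, with limma adjusted p of 0.047 and 0.0233. The Iglv2 call was lost without any single library, up to 0.123, and the Iglj3 call without hM3Dq replicate 8 or mCherry replicate 1, 3 or 4, up to 0.0726. These segments are short and read through the same transcripts as the constant genes, so they are not independent of them.

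**Figure D3:**
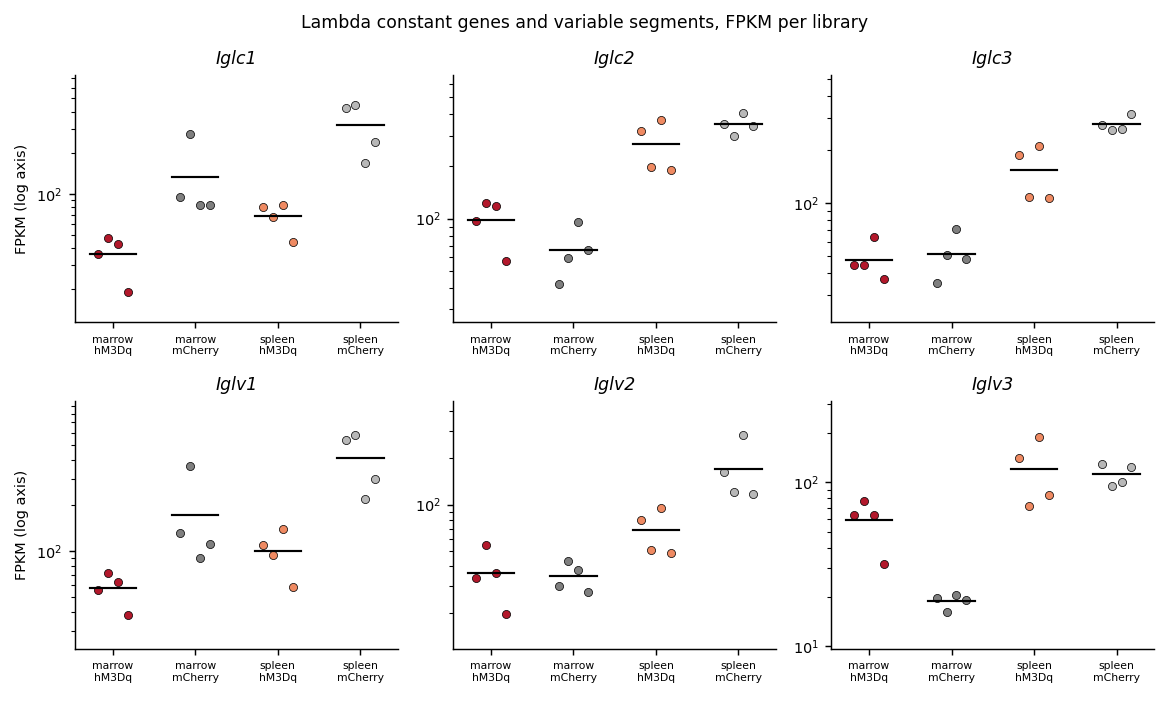
FPKM (log axis) of the lambda constant genes (upper row) and lambda variable segments (lower row) in each library, in the order marrow hM3Dq, marrow mCherry, spleen hM3Dq and spleen mCherry; bars are means of 4. Iglc1 and Iglv1 are lower in all hM3Dq libraries of each tissue, and Iglv3 is higher in all bone marrow hM3Dq libraries.

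**Figure D4:**
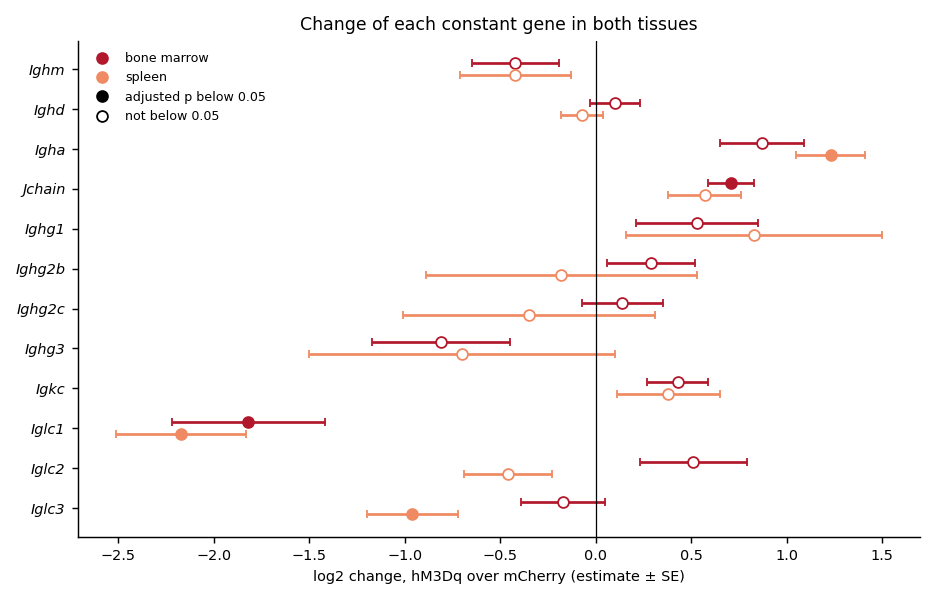
Log2 change, hM3Dq over mCherry, with its SE for the 10 genes and for Iglc1 and Iglc3, in bone marrow and spleen; filled points have a limma adjusted p below 0.05. The filled points are Jchain and Iglc1 in bone marrow and Igha, Iglc1 and Iglc3 in spleen, and the widest errors belong to the IgG genes in spleen.

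The variable segments, which sit in front of these constant genes in each antibody transcript, were counted as groups. In bone marrow 21 of 91 heavy-chain variable segments (Ighv) and 8 of 86 kappa segments (Igkv) were higher in hM3Dq mice and none was lower, beside 3.04% of all genes tested that were higher. Their median log2 changes were 0.72 and 0.70. The 21 include Ighv5-2 and Ighv7-4, which passed the filter on low values only through the hM3Dq group. In bone marrow Ighv5-2 had 12 to 16 reads in hM3Dq and 3 to 9 reads in mCherry libraries. Ighv7-4 had 15 to 24 reads and 3 to 9 reads there. The 8 include a kappa segment of the same kind, described below. The calls of these segments are not read as results, and the counts were not made without them. In spleen 4 of 98 Ighv and 4 of 93 Igkv segments were higher and none was lower, beside 3.49% of all genes, with medians of 0.28 and 0.15. The bone marrow count of Ighv segments was 9 with the haemoglobin share as a covariate, 4 with no filter on low values, 9 without hM3Dq replicate 6, 13 without mCherry replicate 1 and 12 without mCherry replicate 2. The count of Igkv segments was 3 without hM3Dq replicate 6 or 8 or with no filter, and 5 without hM3Dq replicate 7 or mCherry replicate 1, with the covariate, with robust moderation or with a filter of 1 FPKM. The spleen counts were 0 for both kinds without mCherry replicate 4 or with no filter. The spleen Ighv count was 1 without mCherry replicate 3 or in a fit of all 16 libraries, and 2 without hM3Dq replicate 6 or 7 or mCherry replicate 2. The fit without mCherry replicate 1 called 2 Ighv segments higher and 1 lower. The number of Igkv segments higher in spleen was 0 without mCherry replicate 2, 1 without hM3Dq replicate 7 or 8 or in the fit of all 16, and 2 with the filter of 1 FPKM. The fit without mCherry replicate 3 called 0 Igkv segments higher and 1 lower, and the fit without hM3Dq replicate 5 called 3 higher and 1 lower. Many segments are near copies of each other, so reads may have been split between them.

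Chosen after their values were seen, Ighv5-17, Ighv5-4 and Igkv8-34 were called higher in both tissues; the pair of Ighv segments are 2 of the 21 called in bone marrow and 2 of the 4 called in spleen, and Igkv8-34 is 1 of 8 and 1 of 4. Ighv5-4 averaged 43.9 ± 22.7 FPKM in bone marrow hM3Dq and 10.7 ± 0.891 FPKM in bone marrow mCherry libraries, and 82.0 ± 24.4 FPKM in spleen hM3Dq and 37.4 ± 9.68 FPKM in spleen mCherry libraries (SD, n = 4 each). Its log2 changes were 1.77 ± 0.35 and 1.09 ± 0.24, with limma adjusted p of 0.0228 and 0.0297. Igkv8-34 averaged 5.70 ± 1.57 FPKM in bone marrow hM3Dq and 0.629 ± 0.384 FPKM in bone marrow mCherry libraries, and 9.27 ± 3.08 FPKM in spleen hM3Dq and 2.50 ± 1.14 FPKM in spleen mCherry libraries. Its log2 changes were 3.09 ± 0.41 in bone marrow and 1.83 ± 0.36 in spleen, where the limma adjusted p was 0.0227. In bone marrow Igkv8-34 had 19 to 40 reads in hM3Dq and 1 to 6 reads in mCherry libraries. It passed the filter there only through the group where it was high, and not when an hM3Dq library was left out. Its bone marrow call is therefore not read as a result, although it is 1 of the 8 counted above. In spleen the call of Ighv5-4 was lost without hM3Dq replicate 6 or mCherry replicate 2, 3 or 4, up to 0.0722, and that of Igkv8-34 without hM3Dq replicate 7 or 8 or mCherry replicate 2, 3 or 4, up to 0.0686. In bone marrow the call of Ighv5-4 was lost without hM3Dq replicate 8 or mCherry replicate 1, 2 or 4, up to 0.064. Ighv5-17 rose by 1.35 ± 0.23 in bone marrow and 0.89 ± 0.18 in spleen on the log2 scale, and its spleen call was lost without mCherry replicate 1 or 4, up to 0.0631. The kappa segment of highest mean level in spleen, Igkv5-39, ranged from 87.7 to 1467 FPKM in hM3Dq libraries and from 149 to 222 FPKM in mCherry libraries. It took 17.9% of all kappa segment reads in spleen hM3Dq replicate 5, 13.5% in spleen hM3Dq replicate 6 and 14.6% in bone marrow mCherry replicate 4.

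**Figure D5:**
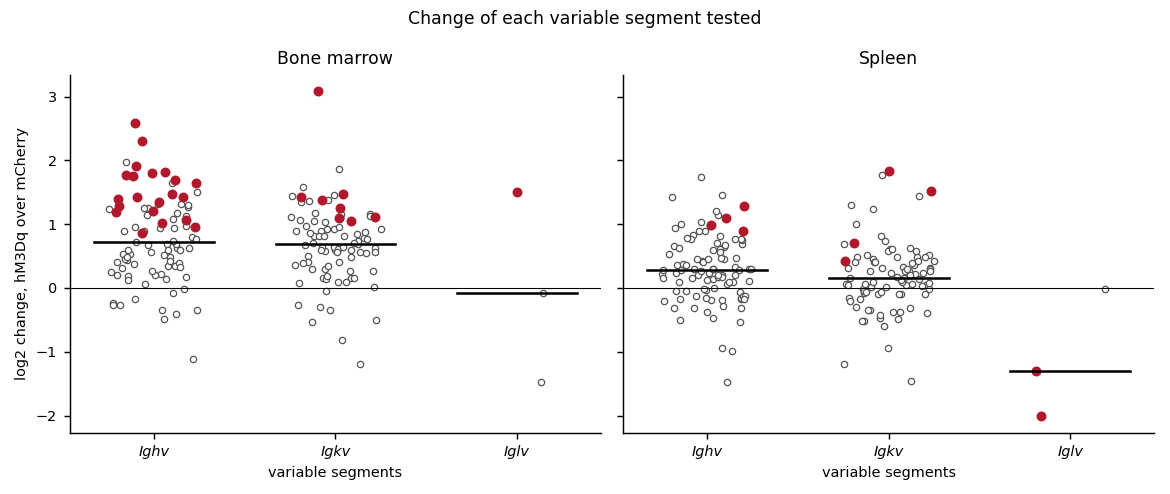
Log2 change, hM3Dq over mCherry, of every variable segment tested in bone marrow (left) and spleen (right); filled points have a limma adjusted p below 0.05 and bars are medians. In bone marrow the filled Ighv and Igkv points are all above 0, and the medians are 0.72 and 0.70, against 0.28 and 0.15 in spleen.

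Genes that make, process and receive antibodies were read from lists. Of 22 secretory and plasma cell genes, 1 was higher and 2 were lower in bone marrow, and 1 was higher in spleen. The list median was -0.04 in bone marrow and -0.02 in spleen, beside -0.01 and -0.02 over all genes tested. Over all genes tested 3.04% were higher and 1.70% lower in bone marrow and 3.49% were higher in spleen, and a single call in a list of this length or shorter is near those shares. The gene that was higher in both was Prdm1, which encodes the factor that drives B cells to become plasma cells. It averaged 1.00 ± 0.104 FPKM in bone marrow hM3Dq and 0.526 ± 0.0857 FPKM in bone marrow mCherry libraries, and 4.09 ± 0.187 FPKM in spleen hM3Dq and 2.77 ± 0.454 FPKM in spleen mCherry libraries. The changes were 0.76 ± 0.15 and 0.52 ± 0.13, with limma adjusted p of 0.0261 and 0.0448. Which cells held the Prdm1 RNA cannot be told in bulk samples. With the filter of 1 FPKM Prdm1 was not tested in bone marrow. The calls were lost in 8 of 15 alternatives in bone marrow and in 9 of 16 in spleen. In bone marrow these include leaving out hM3Dq replicate 6, 7 or 8 or mCherry replicate 2, 3 or 4, up to 0.0778, and in spleen any library other than mCherry replicate 2, up to 0.105. The lower genes in bone marrow were Creld2, a chaperone of the endoplasmic reticulum, at -0.67 ± 0.14, and Ell2, which favours the secreted form of heavy-chain transcripts, at -0.59 ± 0.10 (limma adjusted p of 0.0307 and 0.0158). The call of Creld2 was lost without hM3Dq replicate 5, 6 or 8 or mCherry replicate 2, 3 or 4, up to 0.0928, and that of Ell2 without mCherry replicate 2, at 0.0527. Xbp1, the transcription factor of the secretory programme, changed by 0.12 ± 0.08 in bone marrow and 0.32 ± 0.12 in spleen and did not pass.

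Of 20 B cell receptor and mature B cell genes, 6 were lower and 1 was higher in spleen and the other 13 did not pass, beside 4.57% lower and 3.49% higher over all genes tested, with a list median of -0.21 beside -0.02 over all genes tested. Cr2, the complement receptor of B cells, averaged 25.1 ± 4.00 FPKM in spleen hM3Dq and 55.8 ± 7.92 FPKM in spleen mCherry libraries, a change of -1.18 ± 0.14 with a limma adjusted p of 0.00535. Fcer2a, the low-affinity IgE receptor CD23, fell by 0.93 in spleen and by 0.94 in bone marrow on the log2 scale, where it was the 1 lower gene of the 20. The other genes lower in spleen were Ms4a1 (CD20) at -0.78, Bank1 at -0.93, Pax5 at -0.49 and Blk at -0.41, and Btk was higher at 0.30. The call of Btk was lost in 12 of 16 alternatives, among them leaving out any library other than hM3Dq replicate 5, and that of Blk without hM3Dq replicate 8 or mCherry replicate 1, 3 or 4. The call of Pax5 was lost in the fit of all 16 libraries, at 0.058. The bone marrow call of Fcer2a was lost without mCherry replicate 2 or 4, at 0.0573 and 0.0524. The receptor subunits Cd79a and Cd79b, which carry surface IgM and IgD, changed by -0.22 ± 0.08 and -0.10 ± 0.08 in spleen and did not pass.

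Among pro-B and pre-B cell genes, of which 10 were tested in bone marrow and 7 in spleen, Il7r, the interleukin-7 receptor, was the 1 higher gene in both tissues, at 0.86 ± 0.11 in bone marrow and 1.11 ± 0.13 in spleen, where T cells express it too. Of 18 class switch and hypermutation genes none passed in bone marrow by limma and 3 had an unadjusted p below 0.05: Polh at -0.31 ± 0.10, Prkdc at -0.55 ± 0.18 and Trp53bp1 at -0.27 ± 0.11. In spleen Prkdc, a kinase of the end joining that completes switching, was the 1 lower gene, at -0.49 ± 0.10 with a limma adjusted p of 0.0241. Of 7 genes of immunoglobulin RNA processing, Ell2 was lower in bone marrow and Hnrnpf was lower in spleen, at -0.32 ± 0.07. The spleen call of Prkdc was lost without hM3Dq replicate 7 or 8 or mCherry replicate 1, 2 or 4, up to 0.0695, and that of Hnrnpf without any library other than hM3Dq replicate 5, up to 0.0876.

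Among 15 immunoglobulin receptor and transport genes, 13 were tested in bone marrow, where Fcer2a was lower, beside 1.70% lower over all genes tested. In spleen 15 were tested, of which 1 was higher and 2 were lower, beside 3.49% higher and 4.57% lower over all genes tested. Fcamr, a receptor for IgA and IgM, averaged 1.77 ± 0.313 FPKM in spleen hM3Dq and 7.07 ± 2.13 FPKM in spleen mCherry libraries, a change of -1.92 ± 0.23 with a limma adjusted p of 0.00535. Fcgr2b, the inhibitory receptor for IgG, was higher in spleen at 0.42 ± 0.08, a call lost without hM3Dq replicate 8 or mCherry replicate 1 or 3, up to 0.0571. Of 11 switch cytokine receptor and costimulation genes 1 was higher in bone marrow, Il4ra at 0.58 ± 0.10, beside 3.04% higher over all genes tested. In spleen 1 of the 11 was higher and 2 were lower, Il21r and Cd40, beside the same 3.49% and 4.57%. Ifngr1 was higher at 0.73 ± 0.18 and Il21r was lower at -0.48 ± 0.11. Leaving out any spleen library other than hM3Dq replicate 5 ended both of those calls, with limma adjusted p up to 0.12 for Ifngr1 and 0.102 for Il21r. Cd40, through which T cells help B cells switch class, averaged 6.37 ± 0.693 FPKM in spleen hM3Dq and 11.5 ± 1.44 FPKM in spleen mCherry libraries, a change of -0.87 ± 0.12 with a limma adjusted p of 0.00695.

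Between the tissues, Ighd and Ighg3 had the largest differences of the 10 genes. The bone marrow was compared with the spleen within hM3Dq and within mCherry mice, where 65.5% and 69.3% of genes passed. In hM3Dq mice 33.9% were higher and 31.6% lower in bone marrow, and in mCherry mice 35.3% and 34.0%, so a single call says little. The same 4 of the 10 genes, Ighm, Ighd, Ighg3 and Iglc2, were lower in bone marrow in each comparison and none was higher. In hM3Dq mice 5 of the 10 had every bone marrow library below every spleen library, beside 39.1% of all genes tested, and in mCherry mice 6 did, beside 44.1%. Ighd was 9.63-fold lower in bone marrow in hM3Dq mice and 10.9-fold lower in mCherry mice, with log2 changes of -3.27 ± 0.09 and -3.44 ± 0.14 and limma adjusted p of 3.28e-08 and 1.35e-07. Ighg3 was lower by 3.16 ± 0.46 and 3.05 ± 0.74 on the log2 scale, with its lowest spleen library at 24.1 FPKM and its highest bone marrow library at 15.7 FPKM. Ighm was lower by 1.55 ± 0.26 in both comparisons, and Iglc2 by 1.21 ± 0.30 in hM3Dq mice and 2.18 ± 0.21 in mCherry mice.

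Igha, Ighg1, Ighg2b, Ighg2c, Igkc and Jchain did not pass in either comparison. The bone marrow minus spleen change of Igha was -0.17 ± 0.20 in hM3Dq and 0.18 ± 0.22 in mCherry mice, and that of Jchain -0.13 ± 0.16 and -0.27 ± 0.15. Igkc, at -0.48 ± 0.23 and -0.54 ± 0.23, was lower in every bone marrow library than in any spleen library of the same virus group and had limma adjusted p of 0.0924 and 0.0621. Without spleen hM3Dq replicate 8, Ighg2b, Ighg2c and Igkc passed in hM3Dq mice, at -0.76, -0.61 and -0.61, and without spleen mCherry replicate 3 Igkc passed in mCherry mice, at -0.67. Without composition scaling the median of all genes moved to -0.22 and -0.27, and Igkc passed in both comparisons and Jchain in mCherry mice. Igkc also passed with robust moderation in both comparisons (limma adjusted p of 0.0333 in hM3Dq and 0.0281 in mCherry mice), and in mCherry mice in the fit of all 16 libraries (0.0404) and with the filter of 1 FPKM (0.0415). The split of all genes without composition scaling was 4155 higher and 7107 lower in hM3Dq mice, in place of 5687 and 5297. In mCherry mice it was 4083 and 7977, in place of 5987 and 5758. Between virus groups in bone marrow, leaving out the scaling moved the split too, to 640 higher and 158 lower in place of 489 and 273.

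By level per exon length, Igkc was the highest of the 10 genes in all 4 groups, at 4402 ± 666 FPKM in bone marrow hM3Dq, 3074 ± 332 in bone marrow mCherry, 7329 ± 1427 in spleen hM3Dq and 5570.2 ± 1528 in spleen mCherry libraries. In bone marrow Igha followed, then Ighm and Jchain, of which Ighm and Jchain did not differ beyond their spread in hM3Dq mice, at 413 ± 92.6 and 331 ± 49.2 FPKM. In spleen mCherry mice Ighm, at 1897 ± 573 FPKM, lay above Igha, at 802 ± 109 FPKM, and in spleen hM3Dq mice Igha, at 1939.9 ± 419 FPKM, and Ighm, at 1450.3 ± 417 FPKM, did not differ beyond their spread. Ighg2c was the highest IgG gene by FPKM in all 4 groups. This rank over Ighg2b rests on length, which is 1326 bases for Ighg2c and 2678 for Ighg2b. In reads the order varied: bone marrow hM3Dq replicate 5 had 2223 for Ighg2b and 1982 for Ighg2c. Spleen mCherry replicate 2 had 12717 for Ighg2b and 16434 for Ighg2c. The lowest of the 10 genes by FPKM was Ighg3 in both bone marrow groups and Ighg1 in both spleen groups. The deposited Ighg3 values corresponded to whole reads at a length of 1082 bases, where GENCODE M21 gives 2512, so its level against the other genes depends on the length the authors used.

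Across the 16 libraries, after the mean of each group was subtracted, the IgG genes varied together: the Pearson correlation was 0.96 for Ighg2b with Ighg2c, 0.89 for Ighg1 with Ighg2b and 0.84 for Ighg2b with Ighg3, genes that can share reads. Igha followed Iglc2 at 0.78 and Jchain at 0.60, and had -0.15 with Ighm. These values are descriptions of 16 libraries that share tissues and library depth. Among 12136 other genes, those most like a member by the same measure were Derl3, Sub1 and Mzb1 for Igkc (0.95, 0.92 and 0.89), Chst1, Derl3 and Pcdhgc3 for Ighm (0.91, 0.88 and 0.85), and Mical2, Ap5s1 and Scly for Igha (0.91, 0.88 and 0.84). For Jchain they were Stx11, Edem2 and Mif, each at 0.84, and for Ighd Cyp27a1, BE692007 and Dnaaf3 at 0.93, 0.88 and 0.87.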

How the data were processed

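Each deposited file holds 1 library as FPKM, made by the authors; the submitters' processing notes name CASAVA 1.9, STAR 2.6.1a, featureCounts, edgeR 3.28.1 and GRCm38, and which annotation release and strand setting were used is not given in the sources used here. Of 49585 gene IDs 49326 (99.5%) matched GENCODE M21 symbols. Whole reads were recovered from the FPKM within a tolerance of 0.01: 27922 of 31954 genes above 0 (87.4%) gave whole reads with the M21 exon length and 4032 with another. Reads served for the filter (a minimum of 10, reached in 4 or more of the libraries compared) and for TMM composition factors. log2(FPKM / factor + 0.1) was tested with limma 3.58.1 (trend, two-sided) in R 4.3.3, fitted on all genes, with Benjamini-Hochberg adjustment and a threshold of 0.05. A fold change on this scale understates the change of low genes. On simulated data with 16090 genes tested in bone marrow, 67.6% of 1.5-fold, 92.1% of 2-fold and all 4-fold changes were called, and 0.076% of unchanged genes. In spleen, with 17084 genes tested, these were 78.2%, 92.2%, all and 0.053%. The simulation gave every gene the same dispersion of 0.00624. Its shares therefore do not hold for genes that vary more between libraries, such as the IgG genes in spleen. Replicate numbers were checked as pairs between tissues; same-numbered libraries correlated at 0.05, 0.48, 0.38 and 0.24 in hM3Dq and 0.00, 0.05, 0.03 and 0.16 in mCherry mice, so they were not taken as pairs. Replicate libraries of a group correlated at 0.965 to 0.987, and their reads differed by more than sampling noise in every pair. The genes named are the 10, the called genes of each list (or up to 3 of smallest p where none was called), the variable segments of highest level and the 3 most alike genes, beside those said to be chosen after their values were seen. The lambda joining segments, Iglv2, Iglv3, Ighe, Xbp1, Cd79a, Cd79b and the cell type markers were named outside these rules. The members and lists were chosen with earlier results of these data known. Sequences are from GENCODE M21 transcripts. Each p-value sets a difference between groups against the spread between libraries, moderated by limma over all genes tested. Some genes of the lists are not reported here.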

Additional observations from a re-analysis of the deposited data

Results flagged for a closer look

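In 3 of 48 groups of 4 libraries examined (the 10 genes, Iglc1 and Iglc3 in 4 groups each), 1 library stood apart from the other 3 by Dixon's test, which chance gives in about 1 in 20 groups. Ighg1 was highest in bone marrow mCherry replicate 2, at 54.7 FPKM, with the other 3 libraries at 15.3 to 21.1. Iglc1 was highest in the same library, at 273 FPKM, with the others at 82.3 to 94.1. Ighg2b was lowest in spleen hM3Dq replicate 8, at 45.2 FPKM, with the others at 136 to 152.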

How the results depend on the processing

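Over the alternatives, Igha and Iglc1 in spleen and Jchain and Iglv3 in bone marrow kept direction and call, leaving out each library included. The number of genes passing in bone marrow (762) was 1618 in a fit of all 16 libraries, 496 with the haemoglobin share as a covariate and 285 with no filter on low values; leaving out a library gave 275 to 697, where hM3Dq replicate 6 gave 329, hM3Dq replicate 8 gave 436, and mCherry replicates 1, 2 and 4 gave 470.0, 275 and 318. In spleen (1377) it was 590.0 with no filter and 418 to 1752 without a library, where hM3Dq replicate 6 gave 866, replicate 7 gave 746 and replicate 8 gave 418, and the mCherry replicates in order gave 442, 731, 617 and 569. For the difference between tissues (18) it was 80 with a pseudocount of 1 and 11 without composition scaling, and 3 to 36 without a library. With the replicate block it was 9, and the block, which gave 11225 and 11339 genes between the tissues in hM3Dq and mCherry mice, changed no call of the 10 genes; 3 of 4 hM3Dq and 1 of 4 mCherry libraries correlated best with their own number. No paired analysis was possible within a tissue because the virus groups share no replicate number. Directions turned as follows, and the cause was not tested. Over the left-out libraries, the log2 change of Iglc3 in bone marrow ran from -0.34 to 0.01, and in spleen Ighd ran from -0.13 to 0.01, Ighg2b from -0.65 to 0.26 and Ighg2c from -0.80 to 0.14. For the difference between tissues Ighm ran from -0.23 to 0.19, Ighg1 from -0.81 to 0.11, Ighg2c from -0.00091 to 0.94, Ighg3 from -0.71 to 0.47 and Igkc from -0.09 to 0.19. Ighm was also -0.00072 with scaling without antigen receptor genes. Bone marrow against spleen, Ighg1 ran from -0.22 to 0.50 in hM3Dq mice, and was -0.07 without composition scaling. Igha ran from -0.02 to 0.31 in mCherry mice, and was -0.10 without composition scaling.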
